A study of Mus musculus with 18 samples.

Results

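The 47 genes described here encode the constitutive proteasome of the mouse: the subunits of its 20S core and 19S cap, its activators, an inhibitor and the chaperones that assemble it. They were chosen by name, as the protein-coding genes whose symbol starts with Psma, Psmb, Psmc, Psmd, Psme, Psmf or Psmg followed by a number, from 55487 genes in the count table. Of 54 such symbols, 4 pseudogenes and the 3 genes of the immunoproteasome (Psmb8, Psmb9 and Psmb10) were set aside. The rule also takes in Psmc3ip, which encodes a partner protein of meiotic recombination and no part of the proteasome; it is counted among the 47, and each count below that holds it would be 1 lower without it.

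The transcripts were counted in splenic T cells, isolated by flow sorting, of mice of the strains Foxp3 YFP/cre (here WT) and Foxp3 YFP/cre Ebi3 -/- (here KO), so that every group carries the YFP/cre allele of Foxp3, the gene of the factor that defines regulatory T cells (Treg). Ebi3 encodes the beta chain that IL-35 and IL-27, both cytokines, have in common. The phenotype labels are CD8+, CD4+ and Treg, and each of the 6 groups holds 3 libraries. All cells had spent 72 h in culture with IL-2 at 10 ng/ml, plate-bound anti-CD3 at 2 µg/ml and anti-CD28 at the same concentration. The sources used here do not give age, sex or number of animals. They also do not say whether a group's 3 libraries stem from different mice, and the p-values therefore refer to the spread among the libraries alone, which may be technical.

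The proteasome is the protease that degrades proteins tagged with ubiquitin. Its 20S core is a barrel of outer alpha rings, which gate the entrance, and inner beta rings, in which Psmb5, Psmb6 and Psmb7 encode the catalytic subunits. The 19S cap binds ubiquitin chains, removes them, and unfolds the substrate with a ring of ATPases before it enters the core. Cyclins and the inhibitor of NF-kappaB, which activated T cells degrade, are among its known substrates. In immune cells Psmb8, Psmb9 and Psmb10 can replace the catalytic subunits to form the immunoproteasome.

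The 6 libraries labelled Treg had 841892 to 1089003 counts each, and the 12 of CD4 and CD8 cells had 1358671 to 2255950. The libraries labelled Treg stood apart from the others. They had counts for 20034 to 20596 genes against 16193 to 17338, and for 202 to 223 olfactory receptor genes against 7 to 21. The 8 Treg markers (Foxp3, Ikzf2, Il2ra, Ctla4, Tnfrsf18, Nrp1, Capg and Lrrc32) summed to 311 to 503 CPM (counts normalised to library size) in them. In the CD4 and CD8 libraries these markers summed to 775 to 1466 CPM. Foxp3 had 0 or 1 count in every library. Its YFP/cre allele may alter the 3' end that is counted, so the Foxp3 count alone does not check the label. The libraries labelled Treg held the CD8 markers Cd8a and Cd8b1 (58.4 to 93.4 CPM) as well as the CD4 markers Cd4 and Zbtb7b (99.4 to 130.2 CPM). By these marker sums they did not show the labelled cell type, and they are called libraries labelled Treg. Levels of single Treg markers other than Foxp3 are not given. In addition, the counts of Treg WT libraries 1 and 2 agreed within sampling noise (a chi-square of 0.923 per gene), as did those of Treg KO libraries 1 and 3 (0.914). Each such pair entered means as 1 sample, leaving n = 2; 4 of 9 pairs of a Treg WT and a Treg KO library showed no difference either. Ebi3 itself, the targeted gene, was at 28.01 to 29.7 CPM in CD8 WT and 24.2 to 34.0 CPM in CD8 KO, at 38.7 to 60.5 CPM in CD4 WT and 20.6 to 26.1 CPM in CD4 KO, and at 25.8 to 40.1 CPM in Treg WT and 24.6 to 34.5 CPM in Treg KO. The WT and KO ranges were apart in CD4 and overlapped in CD8 and Treg. The sources do not say which part of Ebi3 is deleted, and a tag at the 3' end outside it would check nothing, so KO and WT are used as labels. B cell markers summed to 2354 to 5652 CPM over the 18 libraries, with all 6 of them detected in each.

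Of the 47 genes, 45 were abundant enough to be tested. Psmb11, the beta subunit of the thymic cortex, had 0 counts among 28653307, which allows up to 0.105 CPM over all libraries. Psma8, the alpha subunit of the testis, had 12 counts in all, at most 3 in a library. These limits cover counting error only. The other members were read in all 18 libraries, with at least 1 count each.

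Values are CPM of the library size scaled by the trimmed mean of M-values (TMM), and each tag stands for a transcript's 3' end, so levels do not grow with transcript length. Among the alpha ring genes, Psma7 ranged from 311 to 611 CPM over the 18 libraries, Psma2 from 304 to 479, Psma4 from 182 to 422, Psma1 from 171 to 259, Psma3 from 136 to 238, Psma6 from 81.2 to 175 and Psma5 from 41.3 to 119.8 CPM. In the beta ring Psmb1 ranged from 262 to 423 CPM, Psmb4 from 243 to 357, Psmb6 from 132 to 213, Psmb3 from 108 to 203, Psmb7 from 50.3 to 187, Psmb5 from 21.9 to 55.8 and Psmb2 from 13.5 to 51.7 CPM. The catalytic subunits, which the assembled core holds in equal number, thus had unequal tag levels, with Psmb5 the lowest of the 3 in every library.

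The ATPases of the 19S base, which unfold the substrate, ranged from 228 to 419.6 CPM for Psmc1, from 213 to 320.1 for Psmc3, from 92.9 to 182 for Psmc6, from 86.3 to 170.0 for Psmc2, from 75.2 to 132 for Psmc4 and from 51.2 to 99.8 CPM for Psmc5. The base scaffolds Psmd1 and Psmd2 were at 222 to 469 and 133 to 245 CPM, and the ubiquitin receptor Psmd4 at 205 to 378 CPM. In the lid, Psmd7 (222 to 389.5 CPM), Psmd3 (105 to 245), Psmd8 (97.7 to 245), Psmd13 (129 to 231), Psmd11 (97.7 to 179), the deubiquitinase Psmd14 (68.7 to 152), Psmd12 (55.7 to 122) and Psmd6 (52.6 to 91.7 CPM) were all detected in every library.

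Psme1 (243 to 442 CPM) and Psme2 (85.5 to 182 CPM) encode the interferon-inducible activator of the core, Psme3 (56.8 to 98.8 CPM) its nuclear relative and Psme4 (67.0 to 101 CPM) a large single-chain activator. Psme2b was at 4.88 to 22.0 CPM. Its transcript is 99.4% identical to that of Psme2 over 794 aligned bases, so the split of tags between these 2 genes is uncertain. The inhibitor Psmf1 was at 46.0 to 67.4 CPM. The assembly chaperones were low: Psmg4 at 69.0 to 98.3 CPM, Psmd10 at 50.7 to 77.5, Psmg3 at 37.3 to 78.6, Psmg2 at 34.5 to 65.7, Psmd5 at 14.3 to 53.6, Psmd9 at 20.9 to 44.3 and Psmg1 at 5.73 to 44.4 CPM. Psmc3ip was the lowest of the genes tested, at 0.956 to 10.9 CPM.

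**Figure D1:**
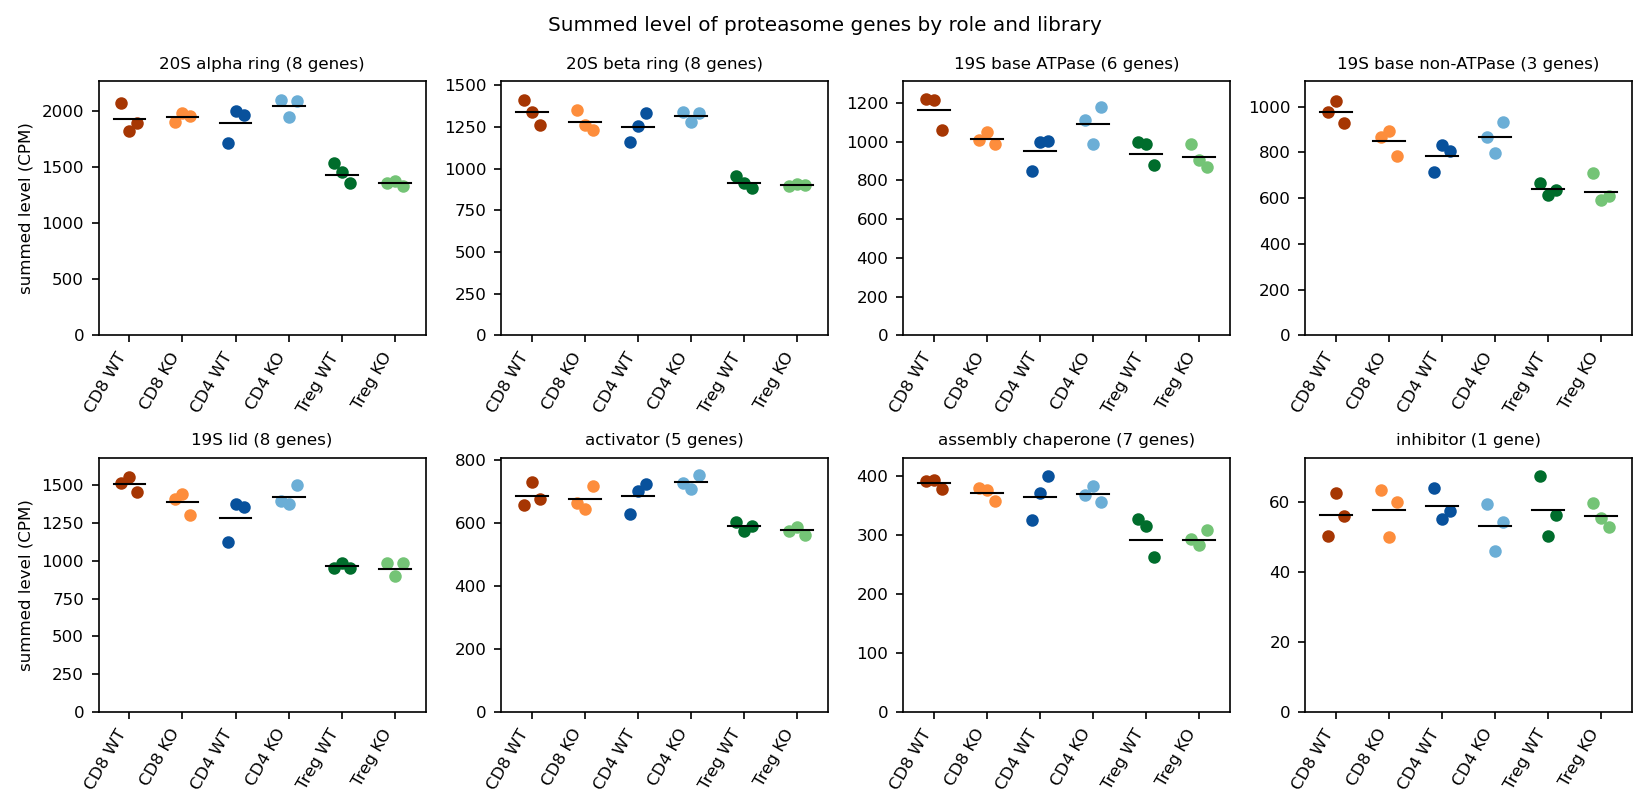
Summed CPM of the proteasome genes by role (panels) in each library (points; lines are group means, with Treg libraries alike within sampling noise counted as 1). In the alpha ring, beta ring and lid panels all 6 libraries labelled Treg lie well below all 12 CD4 and CD8 libraries. They lie below with a small gap for the activators (highest 603 CPM, lowest of the others 629.5 CPM) and next to none for the non-ATPase genes (711 and 712 CPM), and the ATPase, chaperone and inhibitor panels show overlap.

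Summed over the 47 genes, CD8 WT libraries held 8296, 8150 and 7720 CPM and CD8 KO libraries 7652, 7708 and 7408 CPM. CD4 WT libraries held 6579, 7590 and 7651 CPM and CD4 KO libraries 7977, 7535 and 8205 CPM. Treg WT libraries held 6110, 5910 and 5625 CPM and Treg KO libraries 5878, 5612 and 5622 CPM. Every library labelled Treg lay below every other library, and CD4 WT library 1 was the lowest of the other 12. That library also had the highest summed B cell markers (5652 CPM) and hemoglobin (1498 CPM) of the 12, and CD8 WT library 1, with the highest proteasome sum, had the lowest of both (2354 and 625 CPM). The part of these other cells in the sums was not tested; values without single libraries stand beside the comparisons they change, and values with a hemoglobin covariate beside the KO comparisons of CD8 and CD4 cells.

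The members' median standard deviation within a group was 0.158 on the log2 scale, against 0.258 for all 12693 genes tested, and the median range of the 4 CD4 and CD8 group means was 0.251 against 0.345. The 2 sets were not matched on level, and this difference was not tested.

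The promoters of 39 of the 47 genes stand in the RefSeq set for GRCm38.p6, from 250 bases before to 50 after the start of transcription. Proteasome genes are known to be induced together by the factor NRF1 (gene Nfe2l1), which binds antioxidant response elements. A match to TGACNNNGC on either strand was found in 6 of the 39 promoters (15.4%; Psmb5, Psmb6, Psmd9, Psme4, Psmd12 and Psmc6), against 2481 of 16513 protein-coding genes (15%). A match to CCGGAAG on either strand, the core of ETS family motifs, was found in 15 of 39 (38.5%) against 13.4%; this motif was chosen after levels had been seen, and neither share was tested. A match describes the letters in this window and not a bound site. The stretches below, from 100 bases before to 50 after the start, are examples from promoters that hold a match. Psmb5 and Psmb6, as catalytic subunits, are shown with TGACNNNGC in capitals. Psmg1 and Psmd11 (lower in the libraries labelled Treg) and Psmc1 and Psmd13 (higher in CD8 WT than in CD4 WT) are shown for the other motif. There CCGGAAG or its reverse complement CTTCCGG is in capitals.
Psmb5, chr14:54617946-54618095, minus strand: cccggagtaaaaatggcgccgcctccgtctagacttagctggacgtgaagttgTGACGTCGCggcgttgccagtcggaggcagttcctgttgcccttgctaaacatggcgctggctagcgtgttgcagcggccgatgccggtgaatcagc
Psmb6, chr11:70525257-70525406, plus strand: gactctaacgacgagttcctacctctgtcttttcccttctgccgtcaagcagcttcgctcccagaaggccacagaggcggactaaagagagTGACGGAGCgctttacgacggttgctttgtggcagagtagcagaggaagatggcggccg
Psmg1, chr16:95990911-95991060, minus strand: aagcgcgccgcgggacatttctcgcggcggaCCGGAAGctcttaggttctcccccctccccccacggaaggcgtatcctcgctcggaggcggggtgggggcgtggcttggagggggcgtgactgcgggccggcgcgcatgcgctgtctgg
Psmd11, chr11:80428515-80428664, plus strand: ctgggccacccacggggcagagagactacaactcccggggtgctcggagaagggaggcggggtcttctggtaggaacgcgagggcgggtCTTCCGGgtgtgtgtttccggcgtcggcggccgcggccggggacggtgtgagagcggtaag
Psmc1, chr12:100110102-100110251, plus strand: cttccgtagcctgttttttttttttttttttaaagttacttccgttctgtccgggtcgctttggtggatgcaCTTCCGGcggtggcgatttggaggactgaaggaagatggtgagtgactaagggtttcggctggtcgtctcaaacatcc
Psmd13, chr7:140882294-140882443, plus strand: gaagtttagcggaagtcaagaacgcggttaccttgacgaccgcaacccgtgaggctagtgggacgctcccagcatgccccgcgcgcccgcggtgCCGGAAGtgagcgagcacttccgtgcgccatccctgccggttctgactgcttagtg
The match lies next to the start of transcription in Psmb6, Psmd11 and Psmd13, and further upstream in Psmc1, Psmb5 and Psmg1.

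The study's main contrast asks what the loss of Ebi3 changes in each cell type. No member passed the threshold of an adjusted p of 0.05 between KO and WT in CD8, where 0.165% of all genes tested did (21 of 12693), nor in CD4 or in the libraries labelled Treg, where 0.0% did (edgeR quasi-likelihood test with Benjamini-Hochberg adjustment over all genes). At an unadjusted p under 0.05 there were 11 of 45 members in CD8 (16.3% of all genes), 6 in CD4 (7.32%) and 0 in Treg (2.16%). DESeq2 called 0 members in each of these 3 comparisons too, and 0.567%, 0.00788% and 0.0% of all genes in CD8, CD4 and Treg. The members' median log2 fold change was -0.05 in CD8, 0.09 in CD4 and -0.06 in Treg, against 0.00, 0.00 and -0.01 over all genes tested.

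In CD8 cells the activator subunit Psme2 and the ATPase Psmc1 had the largest differences of either sign. Psme2 was at 90.8, 85.5 and 113 CPM in WT and 119, 119.5 and 182 CPM in KO, without overlap (log2 fold change 0.54, SE 0.14, adjusted p = 0.0664 by edgeR). Psmc1 was at 395, 419.6 and 329 CPM in WT and 280.1, 340.0 and 244 CPM in KO, with overlap (-0.41, SE 0.12, adjusted p = 0.0962 by edgeR). Neither passed the threshold, and a split of tags between Psme2 and Psme2b is uncertain. These 2 were singled out after their values were seen. Leaving out CD8 WT library 3, CD8 KO library 1 or CD8 KO library 2 gave 3, 1 and 2 calls in place of 0, with 4.88%, 0.362% and 0.46% of all genes called. With the hemoglobin level as a covariate the members' median in CD8 was 0.02 in place of -0.05.

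The catalytic subunits did not pass in any KO comparison. In CD8, Psmb5 was at 42.7, 38.7 and 39.6 CPM in WT and 55.8, 42.8 and 46.0 CPM in KO (log2 fold change 0.25, SE 0.18), Psmb6 at 213, 211 and 193 against 192, 170.0 and 162 CPM (-0.24, SE 0.10), and Psmb7 at 183, 159.9 and 152 against 150.1, 162 and 152 CPM (-0.09, SE 0.11). The Psmb5 and Psmb6 groups pointed in opposite directions and were barely apart. The highest WT and lowest KO library had 42.7 and 42.8 CPM of Psmb5, and the lowest WT and highest KO library 193 and 192 CPM of Psmb6. The share of all genes with groups apart in this comparison is not given. In CD4 the corresponding log2 fold changes were 0.06 (SE 0.18), 0.05 (SE 0.10) and 0.15 (SE 0.12), and in Treg -0.25 (SE 0.27), -0.06 (SE 0.12) and 0.09 (SE 0.17).

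In CD4 cells 36 of 45 members had a point estimate above 0, none past the threshold. Without CD4 WT library 1 the median was -0.01 in place of 0.09, and with the hemoglobin level as a covariate it was 0.02. The difference of the KO effect between CD4 and CD8 had a median of 0.16, with 0 members called (0.0% of all genes) and 9 at an unadjusted p under 0.05 (17.9% of all genes), the largest being Psmc1 (0.74, SE 0.17, adjusted p = 0.0650 by edgeR). With the hemoglobin level as a covariate that median was 0.03. DESeq2 called 3 members for this difference (1.02% of all genes). Leaving out CD8 WT library 3, CD8 KO library 2, CD4 WT library 2 or CD4 KO library 2 gave 6, 1, 3 and 4 calls, with 6.49%, 1.13%, 4.63% and 1.65% of all genes called.

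**Figure D2:**
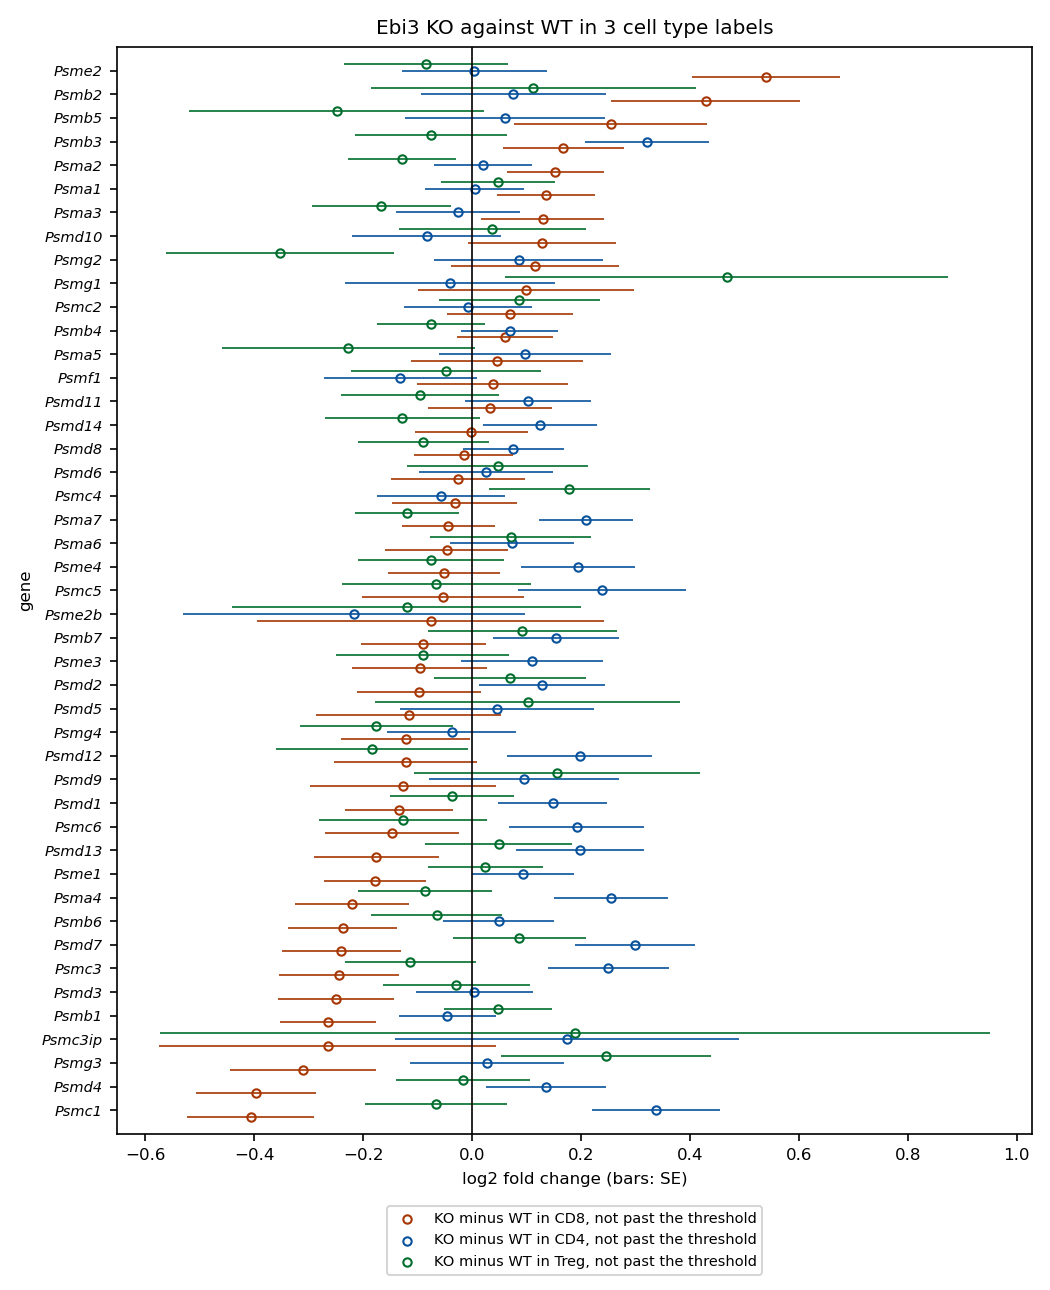
Log2 fold change (x axis; bars are SE) of 45 proteasome genes (y axis, ordered by the value in CD8) between libraries labelled KO and WT, in CD8 (brown), CD4 (blue) and Treg (green). No gene passed the threshold in any of the 3 comparisons, and the values in CD8 run from -0.41 for Psmc1 to 0.54 for Psme2.

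Between CD8 and CD4 cells, 5 of 45 members passed in WT (11.1%), against 5.37% of all genes tested. In WT, 4 members of 45 (8.89%) were higher in CD8, against 3.49% of all genes tested. Lower in CD8 was 1 member (2.22%), against 1.88%. In KO there were 0 calls, where 3.58% of all genes passed in either direction. There, 3 members had an unadjusted p under 0.05 (15.4% of all genes), and DESeq2 called 0 (2.49%). The median over the members was 0.14 in WT and -0.01 in KO, against -0.01 and 0.02 over all genes. The 4 higher genes all belong to the 19S cap. Psmc1, an ATPase of the base, was at 395, 419.6 and 329 CPM in CD8 WT and 228, 316 and 287 CPM in CD4 WT (log2 fold change 0.46, SE 0.12, adjusted p = 0.0179 by edgeR). Psmd4, a ubiquitin receptor, was at 287, 378 and 279 against 234, 241 and 240.1 CPM (0.40, SE 0.11, adjusted p = 0.0263 by edgeR). The groups did not overlap for either gene, but the share of all genes with groups apart in this comparison is not given.

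The lid subunits Psmd7 (351, 389.5 and 311 against 222, 296 and 281 CPM; 0.39, SE 0.11) and Psmd13 (183, 231 and 191 against 129, 166 and 166 CPM; 0.38, SE 0.12) were also higher, with adjusted p = 0.0290 and 0.0477 by edgeR. Psme2 was lower in CD8 WT, at 90.8, 85.5 and 113 against 144, 121 and 141 CPM (-0.48, SE 0.14, adjusted p = 0.0338 by edgeR). Of the catalytic subunits, Psmb6 had a difference of 0.28 (SE 0.10), Psmb7 of 0.20 (SE 0.12) and Psmb5 of 0.04 (SE 0.18), none past the threshold; in KO they had -0.01 (SE 0.10), -0.04 (SE 0.11) and 0.23 (SE 0.18).

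These 5 calls depended on single libraries and on which libraries entered the fit. The count was 0 without CD8 WT library 2, without CD4 WT library 1, or when the fit held the compared groups alone or was made without the libraries labelled Treg, and 2 without CD8 WT library 1, without CD4 WT library 3 or with DESeq2. Between 2.1% and 3.73% of all genes were called in these 7 fits. Without CD4 WT library 1 the members' median was 0.04.

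The libraries labelled Treg held less of most proteasome transcripts. Against CD4 in WT, 25 of 45 members were lower (18.2% of all genes tested) and 3 higher (24.8%), and in KO 32 were lower (20.3%) and 1 higher (27.8%). Against CD8 in WT, 33 were lower (21.4%) and 3 higher (28.8%), and in KO 29 lower (19%) and 1 higher (25.1%). The members' medians were -0.40, -0.49, -0.50 and -0.44 on the log2 scale in this order, where all genes tested had medians of 0.05, 0.10, 0.10 and 0.04. The comparisons of one genotype share their Treg libraries, and some Treg WT and Treg KO libraries differed by no more than sampling noise. In bulk samples, fewer cells of a type and less RNA per cell cannot be told apart.

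With a fold change over 1.5 required, 5, 8, 10 and 6 of 45 members passed in either direction in the 4 comparisons. Of all genes tested 19.7%, 22.8%, 25% and 20.2% did, so in either direction the members were no more frequent than all genes. The share of all genes lower at this fold is not given, so these counts cannot be set beside the falls alone. With the Treg pairs that were alike within sampling noise summed into 1 sample each, 27, 32, 34 and 29 members passed in either direction (39.4%, 44.4%, 46.7% and 40.6% of all genes), against 28, 33, 36 and 30 with each library on its own. The p-values printed below count each library on its own. For 21 of 45 members (46.7%) all 6 libraries labelled Treg lay below all 12 others, as for 11.4% of all genes tested, and for 1 member (2.22%), Psme2b, all lay above, as for 18.1% of all genes. Ribosomal protein genes took 10.0% to 10.8% of the counts in the libraries labelled Treg and 7.69% to 9.45% in the others. Mitochondrial genes took 6.77% to 7.59% against 6.10% to 6.96%, and genes annotated as pseudogenes 1.17% to 1.23% against 0.656% to 1.04%. In addition, the 7 myeloid markers summed to 47.9 to 64.4 CPM against 15.4 to 30.7 CPM, and the B cell markers of the Treg libraries (4112 to 4552 CPM) lay within the range of the others. Their part in the result was not tested.

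**Figure D3:**
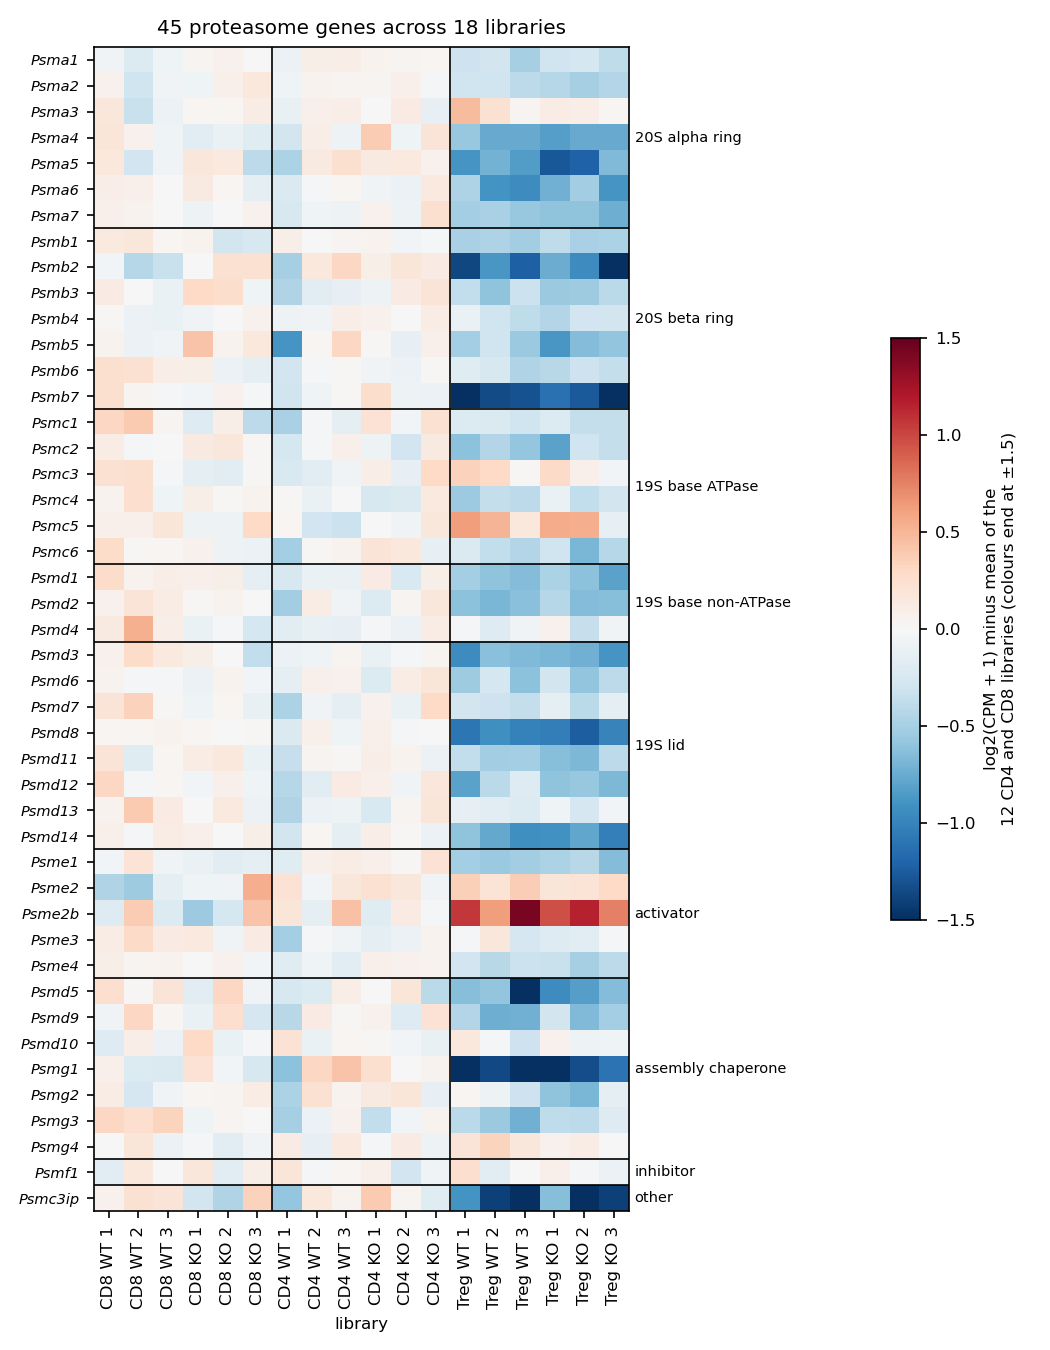
Log2(CPM + 1) of the 45 tested genes (rows, by role) in each library (columns), minus the gene's mean over the 12 CD4 and CD8 libraries; colours end at 1.5 in either direction. The 6 libraries labelled Treg are blue (lower) across most of the alpha ring, beta ring and lid, and red (higher) for Psme2b, while the CD4 and CD8 columns differ little, apart from CD4 WT library 1.

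In the beta ring the genes differed by unequal amounts. Psmb7, the trypsin-like catalytic subunit (ENSMUSG00000026750, chr2:38588036-38644087, minus strand, GRCm38), was at 125 to 187 CPM in the 12 CD4 and CD8 libraries, with 125, 147 and 156 CPM in CD4 WT. It was at 50.5, 60.2 and 62.1 CPM in Treg WT and 70.5, 64.1 and 50.3 CPM in Treg KO. No Treg library reached the lowest of the others, and the log2 fold change against CD4 was -1.31 (SE 0.15) in WT and -1.37 (SE 0.14) in KO (adjusted p = 1.89e-08 and 3.23e-09 by edgeR). Against CD8 it was -1.51 (SE 0.14) and -1.32 (SE 0.14).

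Smaller differences were measured for the chymotrypsin-like subunit Psmb5 and the caspase-like Psmb6. Psmb5 was at 28.5, 33.2 and 27.7 CPM in Treg WT and 21.9, 25.9 and 27.0 CPM in Treg KO, against 21.9, 42.0 and 51.2 CPM in CD4 WT and 41.5, 37.6 and 43.5 CPM in CD4 KO. It was lower in KO (-0.71, SE 0.23, adjusted p = 0.0103 by edgeR) and did not pass in WT (-0.40, SE 0.23, adjusted p = 0.153 by edgeR), where CD4 WT library 1 had the lowest Psmb5 level of the 18 libraries; without that library it passed (-0.68). Psmb6 was at 159, 152 and 132 CPM in Treg WT and 135, 146 and 141 CPM in Treg KO, against 148, 177 and 182 CPM in CD4 WT and 174, 169 and 182 CPM in CD4 KO; its log2 fold changes were -0.20 (SE 0.11, not past the threshold) and -0.32 (SE 0.11, adjusted p = 0.0176 by edgeR). Without CD4 WT library 1 it passed in WT too (-0.32). Against CD8, Psmb6 was lower in WT (-0.48, SE 0.11) and KO (-0.31, SE 0.11), and Psmb5 in KO (-0.94, SE 0.23) but not past the threshold in WT (-0.44, SE 0.22, adjusted p = 0.0989 by edgeR).

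The pseudogene Psmb5-ps, which is no member, had 7 to 11 counts in each library labelled Treg, and 1 count in all in the other 12. Psmb2, a noncatalytic subunit, was at 15.6, 22.1 and 17.2 CPM in Treg WT and 24.3, 21.1 and 13.5 CPM in Treg KO, and at 29.1 to 51.7 CPM in the other 12 libraries, without overlap (-1.24 with SE 0.24 against CD4 in WT, -1.20 with SE 0.23 in KO, and -0.91 and -1.23 against CD8). Of the 7 beta genes tested, 4 were lower than in CD4 in WT (18.2% of all genes) and 7 in KO (20.3%).

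**Figure D4:**
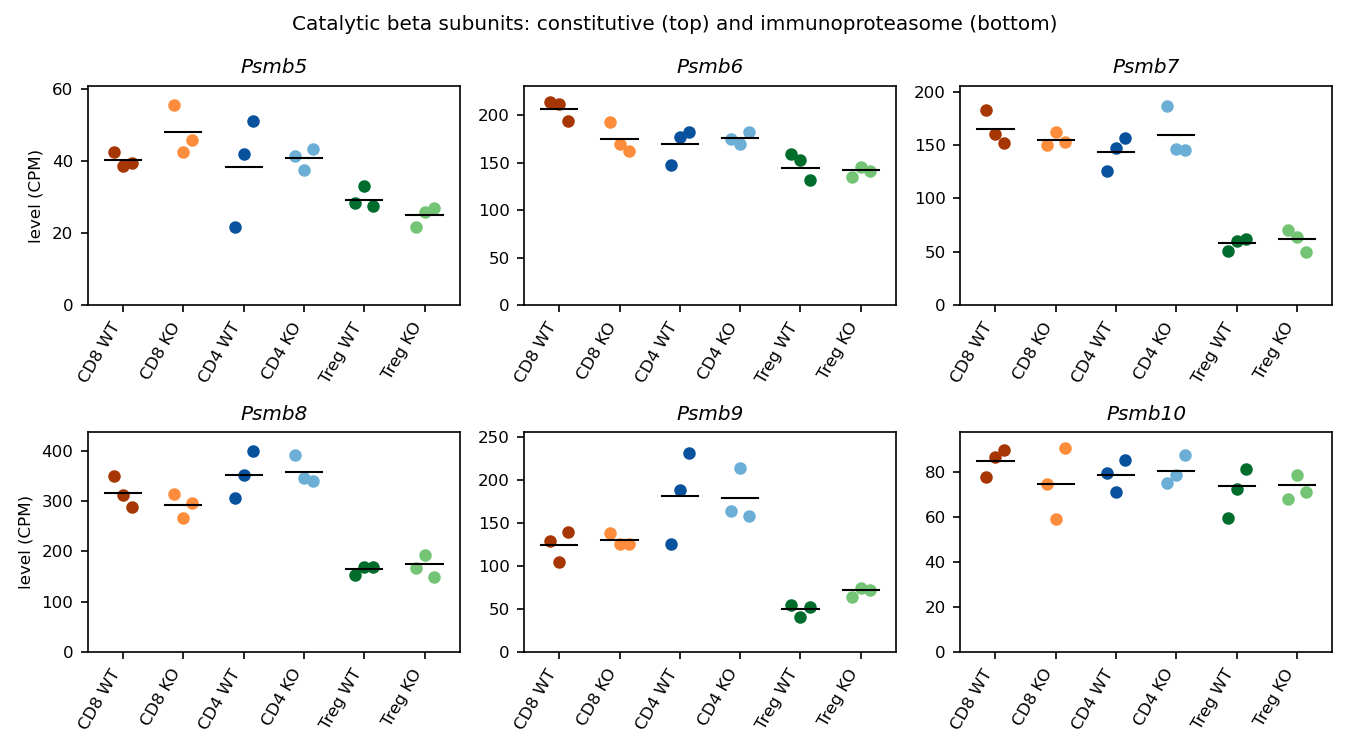
Level (y axis, CPM) of the 3 constitutive catalytic subunits (top row) and of the 3 immunoproteasome subunits (bottom row) in each library (points; lines are group means, counted as in the plot of summed levels). Psmb7, Psmb8 and Psmb9 are lower in all 6 libraries labelled Treg than in any other, while Psmb5, Psmb6 and Psmb10 overlap with the rest.

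In the alpha ring 6 of 7 genes tested were lower in each of the 4 comparisons, as were 11.8% of all genes tested. Psma5 was at 54.4, 61.5 and 56.4 CPM in Treg WT and 41.3, 43.1 and 63.8 CPM in Treg KO, and at 72.9 to 119.8 CPM elsewhere (-0.84 with SE 0.19 and -1.16 with SE 0.20 against CD4 in WT and KO, and -0.77 and -1.04 against CD8). The exception was Psma3, at 176 to 238 CPM in the libraries labelled Treg and 136 to 193 CPM in the others. It was higher than in CD8 in WT (0.32, SE 0.12, adjusted p = 0.0276 by edgeR) with overlapping groups, and passed in none of the other 3 comparisons.

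In the 19S cap, 5 of 8 lid genes and 2 of 3 non-ATPase base genes (Psmd1 and Psmd2) were lower in all 4 comparisons. So was 1 of 6 ATPases, beside 11.8% of all genes tested. Psmd8, a lid subunit (ENSMUSG00000030591, chr7:29174188-29180701, minus strand, GRCm38), was at 109, 122 and 114 CPM in Treg WT and 112, 97.7 and 115 CPM in Treg KO, and at 199.6 to 245 CPM in the other 12 libraries. Its groups did not overlap, with log2 fold changes of -0.95 (SE 0.11) and -1.12 (SE 0.11) against CD4 in WT and KO and -1.04 (SE 0.11) and -1.12 (SE 0.11) against CD8. In the lid 5 of 8 members were lower than in CD4 in WT (18.2% of all genes) and 7 in KO (20.3%). The 5 lower in all 4 comparisons were Psmd3, Psmd6, Psmd8, Psmd11 and Psmd14.

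Of the 6 ATPases only Psmc2 was lower in all 4 comparisons. Psmc5 was at 99.8, 92.2 and 71.7 CPM in Treg WT against 65.6, 52.7 and 51.2 CPM in CD4 WT, and was higher (0.64, SE 0.17, adjusted p = 0.00249 by edgeR); in KO it was at 94.8, 93.8 and 58.9 against 63.8, 61.7 and 72.5 CPM, with overlap and not past the threshold (0.33). Psmc3 was higher in WT (320.1, 308 and 253 against 213, 224 and 241 CPM; 0.37, SE 0.12, adjusted p = 0.00980 by edgeR) and had 0.01 in KO. The summed ATPase level in the libraries labelled Treg was 0.986 times that of CD4 in WT and 0.841 times in KO, where the lid was at 0.749 and 0.662 times, the alpha ring at 0.755 and 0.665 and the beta ring at 0.730 and 0.686. These ratios are of group means and were not tested against each other.

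**Figure D5:**
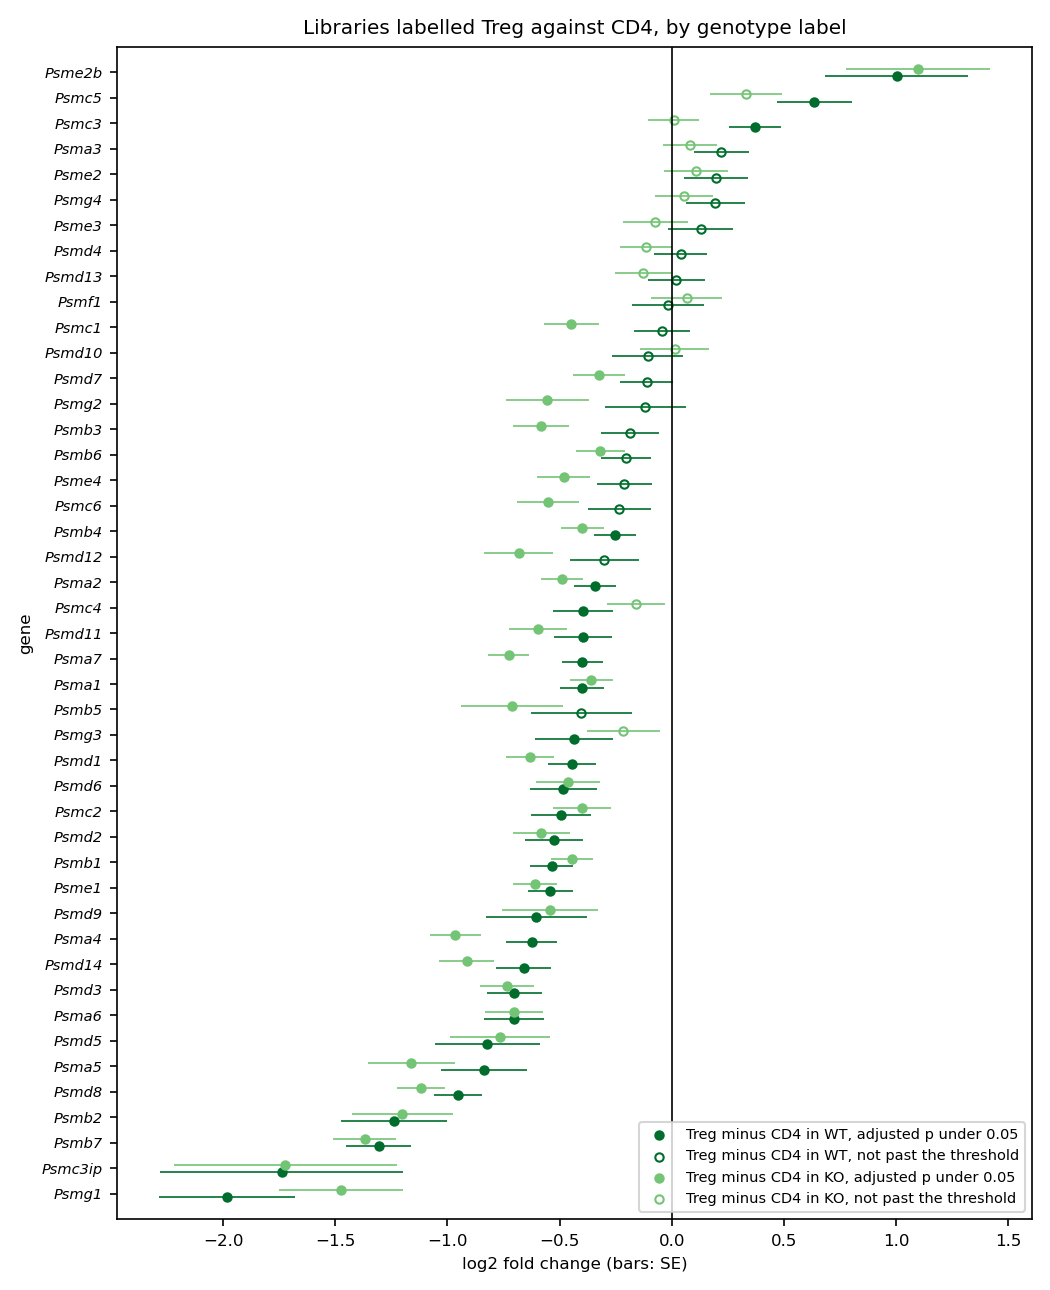
Log2 fold change (x axis; bars are SE) of 45 proteasome genes (y axis, ordered by the value in WT) in libraries labelled Treg against CD4, in WT (dark) and KO (light); filled points passed an adjusted p of 0.05. Most genes lie to the left of 0, from -1.98 for Psmg1 in WT, and Psme2b lies furthest to the right at 1.002 and 1.10.

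The chaperones and activators were mixed. Psmg1, a chaperone of the alpha ring (ENSMUSG00000022913, chr16:95979933-95990960, minus strand, GRCm38), was at 10.4, 12.3 and 5.73 CPM in Treg WT and 10.9, 12.4 and 14.7 CPM in Treg KO, and at 21.1 to 44.4 CPM in the others. It had the largest fall against CD4 among members other than Psmc3ip in both genotypes, of -1.98 (SE 0.30) in WT and -1.48 (SE 0.28) in KO (adjusted p = 3.41e-06 and 4.59e-05 by edgeR); against CD8 it was -1.73 and -1.36. Psmg4, another chaperone of the core, was at 77.3 to 98.3 CPM against 69.0 to 88.6 CPM and passed in none of the 4. The base chaperone Psmd5 was lower in all 4 (-1.09 with SE 0.22 against CD8 in WT), and Psmd10, a base chaperone also known as an oncoprotein, in none. Psmc3ip was lower in all 4, but at 0.956 to 4.86 CPM in the libraries labelled Treg it stood near the floor of 3 counts (2.87 to 3.89 CPM), and no fold is given.

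Among activators, Psme1 was lower in all 4 comparisons, at 243 to 286 CPM against 336 to 442 CPM. Psme2b was higher in all 4 (1.002, 1.10, 1.17 and 1.12, SE 0.32 to 0.33), at 12.3 to 22.0 CPM against 4.88 to 10.7 CPM. Psme2 was higher than in CD8 in WT (0.68, SE 0.15, adjusted p = 2.34e-04 by edgeR), and had 0.20, 0.11 and 0.05 in the other comparisons, none past the threshold. With the split of tags between Psme2 and Psme2b unknown, both values are uncertain. The inhibitor Psmf1 was at 50.4 to 67.4 CPM in the libraries labelled Treg and 46.0 to 64.1 CPM elsewhere, and passed in none.

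Between genotypes, 23 members were lower than in CD4 in WT and in KO alike, 92.0% of the 25 in WT and 71.9% of the 32 in KO. Against CD8 the shared members were 26, 78.8% of 33 and 89.7% of 29. Of all genes tested, 15% were lower than in CD4 in both genotypes, and 15.2% lower than in CD8. In all, 21 members were lower in all 4 comparisons, as were 11.8% of all genes, and 9 in none, as were 71.4%: Psma3, Psmc3, Psmc5, Psmd10, Psme2, Psme2b, Psme3, Psmf1 and Psmg4. Of the 17 of those 21 with a promoter in the RefSeq set, 0 held TGACNNNGC and 7 (41.2%) held CCGGAAG; of 8 among the other 9, 0 held the former and 1 (12.5%) the latter. These shares were not tested, and the sequence of Psmg1 above is one of the 7.

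The immunoproteasome genes, which the rule leaves out, had Psmb8 at 149 to 192 CPM in the libraries labelled Treg against 266 to 399 CPM and Psmb9 at 40.6 to 74.7 against 105 to 231 CPM, both lower in all 4 comparisons, while Psmb10 (59.6 to 81.2 against 59.2 to 90.5 CPM) passed in none. The ratio of each to the constitutive subunit it replaces differed in direction. Psmb10 per Psmb7 was 0.966 to 1.41 in the libraries labelled Treg and 0.365 to 0.634 in the others. Psmb9 per Psmb6 was 0.266 to 0.513 against 0.496 to 1.27, and Psmb8 per Psmb5 was 5.07 to 7.61 against 5.62 to 14.03, both lower in range with overlap.

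A list of 31 other genes of the ubiquitin and proteasome pathway was followed, 30 of which were found and tested. In CD4 and in the libraries labelled Treg, 0 of the 30 passed between KO and WT (edgeR), as did 0.0% of all genes tested. At an unadjusted p under 0.05 there were 0 and 1 (7.32% and 2.16% of all genes). Between libraries labelled Treg and CD4, 6 were higher (24.8% of all genes tested) and 6 lower (18.2%) in WT. In KO 6 were higher (27.8%) and 8 lower (20.3%). Against CD8 there were 6 higher (28.8%) and 10 lower (21.4%) in WT, and 6 higher (25.1%) and 5 lower (19%) in KO. As shares of the list, 20% were higher each time, and 20%, 26.7%, 33.3% and 16.7% were lower in this order.

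Those with the largest values include the transcription factor of proteasome genes itself. Nfe2l1 was at 119, 127 and 97.5 CPM in Treg WT and 97.3, 104 and 104 CPM in Treg KO, and at 45.03 to 73.8 CPM in the other 12 libraries (1.12 with SE 0.15 and 0.76 with SE 0.14 against CD4). Its relative Nfe2l2 was higher as well, by 0.67 (SE 0.13) and 0.86 (SE 0.12). Uchl5, a deubiquitinase of the cap, was at 51.6 to 64.4 CPM against 97.6 to 157 CPM, with -0.95 (SE 0.14) and -1.10 (SE 0.14). The thioredoxin-like cap protein Txnl1 had -0.51 (SE 0.13) and -0.75 (SE 0.13), the deubiquitinase Usp14 -0.49 (SE 0.12) in WT, and the shuttle Rad23b -0.43 (SE 0.10) in WT; these passed too. The ribosomal fusion gene Rps27a, which encodes ubiquitin joined to a ribosomal protein, was higher by 0.78 (SE 0.16) and 0.64 (SE 0.16), beside the larger ribosomal protein share of these libraries.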

How the data were processed

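Per the labels' protocols, RNA (500 ng) was made into 3' tag libraries with QuantSeq FWD and unique molecular identifiers. Per the submitters' processing notes the tools were FastQC, cutadapt 2.10, STAR 2.5.3a, UMI-tools 1.0.0 and featureCounts of Subread 2.0.0, with GRCm38/mm10. The sources used here give neither the annotation release nor the settings for strand and multiple mapping. The authors deposited raw counts per gene for 18 libraries, with 0 columns unused here and 0 rows naming no gene. GENCODE M21 (GRCm38) gave names and positions for 55227 of 55487 gene IDs.

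Genes were kept with filterByExpr (minimum count 10), leaving 12693, and scaled by TMM. The 6 groups were fitted together with edgeR 4.0.16 (quasi-likelihood test, 12 residual degrees of freedom with every library counted on its own, also the Treg pairs alike within sampling noise, R 4.3.3), and p-values were Benjamini-Hochberg adjusted over all genes tested, with a threshold of 0.05. CPM divide counts by the TMM-scaled library size, and 3 counts correspond to 1.31 to 3.89 CPM. The code was tested on simulated data. Members with values were named by a fixed rule: the catalytic subunits always, and up to 6 called in each direction with the largest values. The members and lists were chosen with earlier results of these data known. Alternatives were other scalings (RLE, upper quartile), no filter, DESeq2 1.42.0, limma-voom (limma 3.58.1), a fold over 1.5, fewer libraries, summed Treg pairs, a replicate block, a hemoglobin covariate, and each library left out. The KO against WT comparison of the other pathway genes in CD8 is not reported here.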

Additional observations from a re-analysis of the deposited data

How the results depend on the processing

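Of the alternatives to the values named as past the threshold, 554 kept direction and side of the threshold, 79 lost the threshold and 0 reversed. Without the filter on low counts, members called were 3 for KO against WT in CD8, 5 for the difference of the KO effect between CD4 and CD8, and 1 for CD8 against CD4 in KO (1.47%, 1.98% and 2.28% of all genes). DESeq2 gave 3 for that difference (1.02% of all genes) and 2 for CD8 against CD4 in WT (3.27%). The latter count was 0 with a fold over 1.5 required (1.02%) and 0 with only the libraries compared (2.1%). It was 0 with only the 12 CD4 and CD8 libraries (3.44%) and 3 with Treg pairs summed (4.26%). With a fold over 1.5 required, Treg against CD4 gave 5 in WT and 8 in KO, and Treg against CD8 gave 10 and 6. Of all genes, 19.7%, 22.8%, 25% and 20.2% passed. These counts and shares hold calls in either direction. Leaving out 1 library gave 0 to 3 for KO against WT in CD8 (0.0% to 4.88% of all genes). It gave 0 to 6 for the difference (0.0% to 6.49%). For CD8 against CD4 it gave 0 to 6 in WT (2.31% to 9.55%) and 0 to 1 in KO (2.17% to 3.46%). Upper quartile scaling raised the median of all genes to 0.11, 0.17, 0.19 and 0.12 in the 4 Treg comparisons, with member medians of -0.34, -0.43, -0.42 and -0.37. The cause of these shifts was not tested.

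The sources used here do not say whether the replicate numbers pair libraries across groups. Correlations between same-numbered libraries' deviations from their group means ran from -0.340 (CD8 WT with CD4 WT) to 0.307 (CD8 WT with CD8 KO). They cannot decide the question, and the main fit used no replicate block. With the replicate block 0 members were called in each KO comparison and for the difference (0.0945% of all genes in CD8, 0.0% in the others). The calls were 6 and 0 for CD8 against CD4 in WT and KO (5.17% and 3.55% of all genes). In the Treg comparisons they were 28, 33, 36 and 30 (42.3%, 47.5%, 49.7% and 43.6% of all genes).

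Reversed signs were found for catalytic subunits that did not pass the threshold. With the hemoglobin covariate, KO against WT gave 0.104 for Psmb7 in CD8, -0.0635 for Psmb5 and -0.0277 for Psmb6 in CD4, and -0.0555 for the Psmb7 difference. Leaving out 1 library, KO against WT in CD4 ranged from -0.181 to 0.305 for Psmb5 and from -0.0342 to 0.107 for Psmb6, lowest without CD4 WT library 1. In Treg Psmb7 ranged from -0.0024 to 0.212, and the Psmb5 difference from -0.432 to 0.0517. For CD8 against CD4, Psmb5 ranged from -0.224 to 0.281 in WT, and in KO Psmb7 ranged from -0.11 to 0.0837 and Psmb6 from -0.0804 to 0.0436. Summed levels by role moved by less than 1 SD in 105 of 120 rescaled values and by more in 15. Depth limits Psmc3ip, Psme2b and Psmg1 most, which had the fewest counts in the libraries labelled Treg.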
